A study of Homo sapiens with 32 samples.

Results

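Dasatinib (Das) treatment of MDA-MB-468 cells for 72 h was compared with control treatment for the same time, using 8 of the 32 RNA-seq libraries of the study. The study profiled this human triple-negative breast cancer line after control treatment, salinomycin (Sal), Das, or both drugs together, at 24 h and 72 h. The 4 Das libraries came from cells given 15 μM Das, and the 4 control libraries from cells given PBS, with nothing else differing between the groups by their labels. The methods of the study describe drug stocks in DMSO and name only PBS for the controls, and an effect of the solvent was not tested. Libraries were assigned to their group by treatment and time in the sample labels. All cells were of 1 established line, described as biological replicates, so the values describe MDA-MB-468 monolayers and no other model. In each group 3 libraries carried a replicate number and 1 did not, and values below are listed in the order unnumbered, 1, 2 and 3.

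Das blocks SRC family and ABL kinases, and also binds KIT, platelet-derived growth factor receptors, ephrin receptors and discoidin domain receptors. SRC family kinases pass signals from integrins and growth factor receptors to the MAP kinase ERK, to STAT3 and to the cytoskeleton. ERK switches on a small set of genes that includes its own inhibitors (the DUSP phosphatases and the SPRY proteins) and the ETV transcription factors, which therefore serve as a transcript readout of the pathway. MDA-MB-468 cells carry an amplified EGFR gene, so a large part of this signalling starts at the EGF receptor.

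Total counts ran from 27812240 to 39373515 reads per library, and 15732 of 48804 listed genes had enough reads to be tested. Levels are given as CPM, the read count of a gene scaled to library size. The epithelial markers of the line were present in all 8 libraries, with EGFR between 4100 and 5910 CPM, and SMAD4, which is deleted in this line, stayed at or below 0.43 CPM. Of 6 fibroblast markers, COL1A1 alone passed the filter on low counts, and the 6 summed to between 23.6 and 32.2 CPM in controls and between 33.2 and 67.6 CPM with Das, while COL1A2, COL3A1, DCN, LUM and THY1 were at or near 0. Of 3 leukocyte markers, CD14 alone passed the filter, and the 3 summed to between 25 and 32.4 CPM in controls and between 2.66 and 4.51 CPM with Das, with PTPRC and CD3E at or near 0. Endothelial markers summed to at most 0.753 CPM.

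The 8 libraries did not form 2 tight groups. The first principal component, with 63.2% of the variance, placed the controls between -46.74 and -43.12 and the Das libraries at 41.95, 65.43, 60.96 and 11.15. The second component, with 17.8%, set the unnumbered libraries of both groups (-35.65 for control and -46.71 for Das) apart from the numbered ones (1.29 to 29.48). On the first component Das replicate 3 therefore lay between the controls and the other Das libraries. It was the highest library on the second (29.48) and stood apart on the third, at -39.65 against -11.61 to 17.51, although its depth of 31267064 reads was within the range of the others. A term for unnumbered against numbered libraries was kept in the test, and each result was also computed without Das replicate 3, a library that was singled out after its values had been seen.

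**Figure D1:**
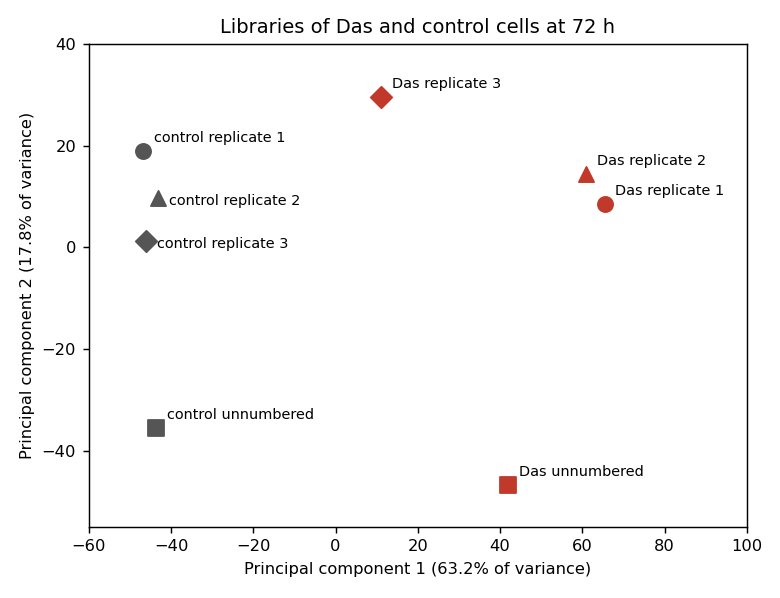
The 8 libraries on the first and second principal components of log2 CPM, with the share of variance on each axis. Controls are grey and Das libraries red, and the marker shape gives the replicate. Das replicate 3 sits at 11.15 on the first component, between the controls at -46.74 to -43.12 and the other Das libraries at 41.95 to 65.43.

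With all 8 libraries, 316 genes (2.01% of those tested) were upregulated and 391 (2.49%) downregulated at an adjusted p under 0.01 and a log2 fold change beyond 1.5 in either direction (edgeR quasi-likelihood test, Benjamini-Hochberg adjustment over all genes tested). With the adjusted p alone, 1646 genes (10.5%) were higher and 1799 (11.4%) lower. Without Das replicate 3 both counts grew, to 595 higher (3.69% of 16145 tested) and 593 lower (3.67%), or 3693 (22.9%) and 3771 (23.4%) with the adjusted p alone. The longer lists contained 314 of the 316 higher genes and 375 of the 391 lower genes. Counts of list members below use the adjusted p alone. They are to be read beside 10.5% higher and 11.4% lower over all genes tested, or 22.9% and 23.4% without Das replicate 3. The median log2 fold change over all genes tested was 0.0, and the 2 groups did not overlap at 4633 genes (29.4%). Over the 316 higher and 391 lower genes the median log2 fold changes were 1.92 and -2.0 in the unnumbered pair alone and 1.91 and -2.13 in the numbered libraries alone (over the 313 and 388 tested there), which is a description, since the genes were chosen from the same libraries. In these bulk libraries a lower level in each cell and fewer cells with the transcript cannot be told apart.

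The counts of calls depended on which library was left out. Leaving out any control library, the unnumbered Das library or Das replicate 2 left between 142 and 197 higher genes, and leaving out Das replicate 1 left 218. The lower genes numbered between 284 and 320 in those 7 fits.

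Several of the largest rises were in genes with little or no expression in control cells. TFF1, which encodes a secreted mucosal peptide, had 0 reads in all 4 controls and 3.49, 0.876, 0.611 and 1.02 CPM with Das, at least 16.3-fold above a floor of 3 counts per library. CGA, the common alpha subunit of the glycoprotein hormones, was at 8.59, 2.41, 2.73 and 0.588 CPM with Das against 3 reads in the controls together, a ratio of 192.0 with an exact 95% interval of 65.4 to 935.0 for counting error only. All 4 Das libraries held reads of both genes.

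SMOC1 (chr14:70320848-70499083, on GRCh37 as for all gene positions given), which encodes a secreted matrix protein, was between 0.475 and 0.754 CPM in controls and at 35.4, 22.9, 29.2 and 18.1 CPM with Das, a log2 fold change of 5.40 ± 0.25 (SE). NR4A3, an orphan nuclear receptor of the immediate early class, went from at most 0.5 CPM to 12.5, 10.6, 10.5 and 4.64 CPM (log2 4.72 ± 0.41). At both genes Das replicate 3 was the lowest Das library, yet it stayed above all controls. The other large rises were in SERHL2 (46.0% of its exon bases overlap another gene, so its reads are uncertain), SLC5A8 (7 reads in controls and 188 with Das, ratio 29.6, interval 14.1 to 74.5), CYP1A1, ASIC4, MAPK4, CREG2 and DDIT4L.

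The largest falls reached a lower floor in the Das libraries. LRRC55 (chr11:56949221-56959191), an auxiliary subunit of potassium channels, fell from 34.1, 28.3, 25.7 and 25.6 CPM to 0.244, 0.375, 0.359 and 0.278 CPM (log2 -6.50 ± 0.18). TNC (chr9:117781854-117880486), the matrix glycoprotein tenascin C, fell from between 9.3 and 15.4 CPM to between 0.108 and 0.188 CPM (log2 -6.24 ± 0.22). S100A7A, a calcium-binding protein of keratinocytes, fell from between 62.5 and 94.2 CPM to between 0.72 and 1.93 CPM. At these 3 genes Das replicate 3 stood among the other Das libraries. The ERK-responsive genes EGR1, ETV5, SPRY4 and ETV4, the calcium-binding S100A8, the protease inhibitor PI3 and the pantetheinase VNN2 were also among the 12 largest falls, with log2 fold changes between -6.47 and -5.22. The 2 remaining genes had few reads with Das: IL7R with 2 against 149 in controls (ratio 67.7, interval 18.4 to 564.0) and SERPINB7 with 3 against 173 (ratio 52.4, interval 17.6 to 257.0).

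**Figure D2:**
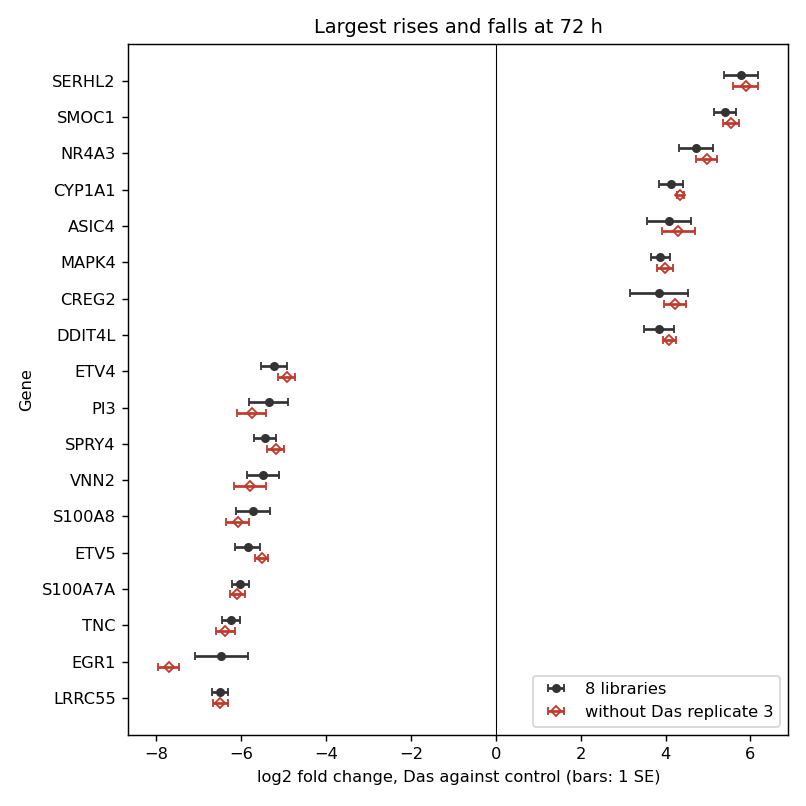
Log2 fold changes with standard errors for genes with the largest rises and falls, in all 8 libraries (black) and without Das replicate 3 (red). TFF1, CGA, SLC5A8, IL7R and SERPINB7 are left out for their low counts in 1 group. The 2 estimates lie close together for most genes, and that of EGR1 goes from -6.47 to -7.71 without the library.

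To place each Das library without using it to choose the genes, genes were called from the other 7 libraries and the library left out was given a position between the control mean (0) and the mean of the other Das libraries (1) on the log2 CPM scale. The median position was 0.88 for the unnumbered library (454 genes), 1.14 for replicate 1 (538 genes), 1.08 for replicate 2 (510 genes) and 0.51 for replicate 3 (1188 genes). For the unnumbered library and replicates 1 and 2 the reference mean includes replicate 3. The gene sets also differ, so the 4 values are not on the same scale. Replicate 3 thus went about as far as the midpoint, but unevenly. Its quartiles were 0.27 and 0.81, and at 933 of the 1188 genes (78.5%) it lay beyond all 4 controls in the direction of the call, while at 103 genes it lay at the control mean or past it. Its median was 0.37 over the 595 higher genes and 0.66 over the 593 lower genes.

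**Figure D3:**
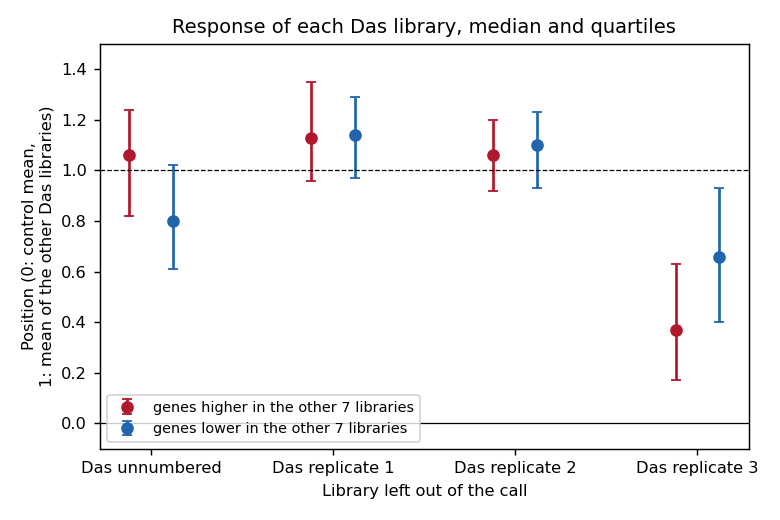
Median position of each Das library, with quartiles, over genes called higher (red) or lower (blue) in the other 7 libraries. On the vertical axis 0 is the control mean and 1 the mean of the other Das libraries. Replicate 3 is at 0.37 for higher and 0.66 for lower genes, and the other libraries lie between 0.8 and 1.14.

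The position of Das replicate 3 differed from one gene group to another. Over members called without it, its median position was 1.37 for inflammatory chemokines and cytokines (11 genes), 1.14 for glycolysis and hypoxia genes (12), 0.97 for sterol synthesis (18), 0.96 for YAP and TEAD targets (11) and 0.93 for ERK output (15). In these groups it lay near the mean of the other Das libraries or past it. That mean includes the unnumbered Das library. For glycolysis and hypoxia its median log2 level relative to controls was -0.08, against -0.74, -0.79 and -0.8 in replicates 1, 2 and 3. For the inflammatory genes it was -0.82, against -1.56, -1.96 and -2.0. The median position of replicate 3 was 0.2 for DNA replication (31 genes), 0.0 for endoplasmic reticulum (ER) chaperones (14) and -0.02 for mitosis (28). There replicate 3 lay near the controls. Other lists lay between, such as G1/S genes at 0.25 (15), lysosome and autophagy genes at 0.29 (14) and Wnt genes at 0.48 (11). Integrin and matrix genes were at 0.63 (18). Single members ranged widely, from -1.47 to 1.33 in ERK output and from -0.76 to 1.65 in sterol synthesis. The cause of these differences was not tested.

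**Figure D4:**
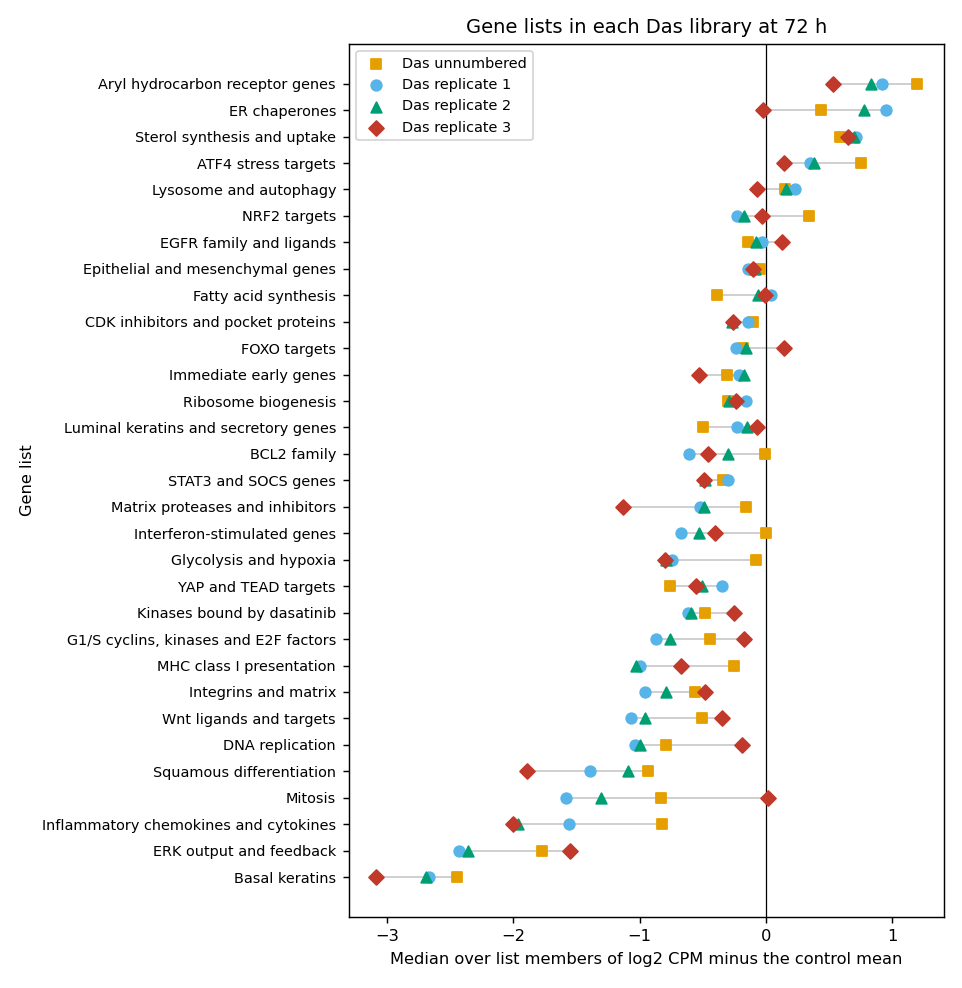
Median log2 CPM over the tested members of each gene list, relative to the control mean, in each of the 4 Das libraries. For mitosis replicate 3 is at 0.02 against -0.83 to -1.58 in the other Das libraries, and for ERK output all 4 libraries lie between -2.43 and -1.55.

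ERK output and feedback genes fell in most of the members tested. Of 16 members tested, 14 were lower and 0 higher, with a median log2 fold change of -2.07, and 15 were lower without Das replicate 3. Leaving out any other library left 13 or 14. ETV4 (chr17:41605212-41656988), a transcription factor of the PEA3 family, was at 40.8, 47.9, 46.3 and 51.0 CPM in controls and at 2.03, 0.876, 1.58 and 0.557 CPM with Das (log2 -5.22 ± 0.31). SPRY4, a feedback inhibitor of receptor tyrosine kinase signalling, was at 32.4, 34.1, 34.2 and 37.2 CPM in controls and at 1.32, 0.813, 0.611 and 0.433 CPM with Das (log2 -5.44 ± 0.25). Das replicate 3 was the lowest library of all for both genes. ETV5 and ETV1, of the same family, had log2 fold changes of -5.85 and -4.87.

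The ERK phosphatase DUSP6 (28.6% of its exon bases shared with another gene) fell from between 14.8 and 21.7 CPM to between 0.22 and 1.11 CPM. FOSL1, an AP-1 factor that ERK stabilizes, fell from between 5.95 and 7.96 CPM to between 0.18 and 0.313 CPM (log2 -4.68 ± 0.19). Other feedback genes moved less but in the same direction. SPRY2, SPRED1, SPRED2 and DUSP5 had log2 fold changes of -0.95, -1.23, -1.15 and -2.33, each with an SE of at most 0.12. DUSP4 was between 159 and 174 CPM in controls and between 133 and 153 CPM with Das, which missed the threshold (adjusted p = 0.0248).

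Immediate early genes did not move as a block. Of 17 tested, 7 were lower and 2 higher, with a median log2 fold change of -0.23. Over all genes tested 11.4% were lower and 10.5% higher. EGR1, a zinc finger factor induced through ERK and serum response factor, fell furthest, from 85.9, 230, 281 and 304 CPM to 0.854, 0.907, 0.97 and 7.42 CPM (log2 -6.47 ± 0.62, and -7.71 ± 0.24 without Das replicate 3). Its relative EGR3 had 5 reads with Das against 213 in controls, a ratio of 38.7 (interval 16.3 to 120.0). FOS, JUNB and MYC fell (log2 -2.66, -1.73 and -1.14). NR4A3 (above) and its relative NR4A2 rose, NR4A2 from between 24.3 and 29.4 CPM to between 44.4 and 53.4 CPM. The lower genes were FOS, JUNB, EGR1, EGR3, IER2 (52.2% of exon bases shared), MYC and ZFP36, an RNA-destabilizing protein.

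The EGR1 promoter is shown because that gene had the largest fall on the list and carries the serum response sites of this class. The 250 bases upstream of its start site (RefSeq, GRCh38.p14, chr5:138465229-138465478, plus strand) hold 2 CArG boxes, the serum response factor motif CC followed by 6 A or T bases and GG, given in capitals at positions -105 to -96 and -83 to -74 from the start site.
EGR1: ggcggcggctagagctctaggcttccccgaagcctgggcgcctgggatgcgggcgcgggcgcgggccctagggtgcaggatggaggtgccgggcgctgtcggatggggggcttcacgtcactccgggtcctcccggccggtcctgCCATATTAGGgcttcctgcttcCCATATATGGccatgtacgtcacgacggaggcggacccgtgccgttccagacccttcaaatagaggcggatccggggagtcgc
The motif, searched on both strands from 250 bases upstream to 50 downstream of the start, was found in 351 of 27305 promoters (1.29%), in 2 of 15 immediate early genes with a promoter entry (EGR1 and SRF) and in 0 of 9 ERK output genes. A match describes these letters alone.

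Among kinases that Das binds, transcripts of 6 of 17 tested fell and 2 rose, with a median log2 fold change of -0.69, and without Das replicate 3 the counts were 11 and 3 of 18. SRC itself was at 54.6, 49.7, 52.9 and 62.5 CPM in controls and 31.3, 23.4, 21.3 and 35.0 CPM with Das (log2 -0.99 ± 0.16). The collagen receptor DDR1, an abundant transcript, fell from between 1250 and 1580 CPM to between 660 and 923 CPM. The ephrin receptor EPHA2 fell from between 31.5 and 51.1 CPM to between 10.1 and 15.5 CPM (log2 -1.66 ± 0.09), and LYN, EPHB4 and CSF1R fell (log2 -0.80, -0.71 and -0.99).

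FYN, a SRC family kinase, rose in every Das library, from between 12.3 and 15.8 CPM to 45.2, 30.5, 35.5 and 31.6 CPM (log2 1.40 ± 0.14). DDR2 rose from at most 0.713 CPM to 3.32, 2.22, 3.02 and 0.897 CPM, so that Das replicate 3 was nearest the controls. The 2 higher members of 17 stand against 10.5% of all genes tested that were higher at an adjusted p under 0.01. Without Das replicate 3, 22.9% of all genes tested were higher and 23.4% lower. Leaving out a library other than Das replicate 3 left between 3 and 5 lower members and 1 higher member, and the adjusted p of SRC, LYN, DDR2 and EPHB4 then reached up to 0.0107, 0.0101, 0.0247 and 0.0230.

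EGFR was at 5200, 5900, 5530 and 5910 CPM in controls and 4100, 4780, 4900 and 5790 CPM with Das, which did not pass the test (log2 -0.21 ± 0.10, adjusted p = 0.109). It passed without Das replicate 3 (log2 -0.28, adjusted p = 0.00352). Of the 11 tested members of the EGFR family and its ligands, the ligand EGF rose (log2 0.55 ± 0.11) and the feedback inhibitor ERRFI1 fell from between 228 and 263 CPM to 100, 79.7, 91.4 and 58.6 CPM (log2 -1.57 ± 0.15). EGF was not called when any other library was left out. The 1 higher and 1 lower member of 11 stand against 10.5% and 11.4% over all genes tested.

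The YAP and TEAD factors read out cytoskeletal tension. Of 21 of their targets tested 11 fell and 0 rose, with the same counts without Das replicate 3 and between 6 and 8 without any other library. CCN2, a matricellular protein, fell from between 19.3 and 23.6 CPM to 1.76, 5.26, 4.63 and 6.0 CPM (log2 -2.35 ± 0.27). IGFBP3, a binding protein of insulin-like growth factors, fell from 999, 618, 686 and 601 CPM to 274, 118, 120 and 117 CPM (log2 -2.28 ± 0.12). AMOTL2, a scaffold that restrains YAP, and F3, the coagulation initiator tissue factor, fell with log2 fold changes of -1.17 and -1.36. At all 4 genes every Das library was below every control.

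Of 20 integrin and matrix genes 10 fell and 0 rose, against 17 and 1 without Das replicate 3. TNC led them. LAMB3, the beta 3 chain of laminin 332, was at 15.6, 2.93, 3.28 and 4.58 CPM in controls and at 1.54, 0.751, 0.575 and 0.433 CPM with Das (log2 -2.85 ± 0.25). The unnumbered libraries were the highest of their group at this gene, and the fall was seen within each kind of library. ITGB4, the hemidesmosome integrin chain, ITGA6 and ITGAV fell with log2 fold changes of -1.15, -0.83 and -0.67.

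Of 12 matrix protease and inhibitor genes tested, 6 fell and TIMP3, a protease inhibitor held in the matrix, rose (log2 0.75 ± 0.12). MMP7, matrilysin, fell from between 8.04 and 13.4 CPM to between 0.156 and 0.467 CPM (log2 -4.77 ± 0.26). The plasminogen activator PLAU (31.0% of exon bases shared) fell from between 14.8 and 29.4 CPM to between 3.23 and 7.52 CPM. PLAT had 4 reads with Das against 130 in controls (ratio 29.5, interval 11.3 to 110.0).

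Most of the inflammatory chemokines and cytokines tested were lower. Of 14 10 were lower and 0 higher, with a median log2 fold change of -1.60, and between 8 and 11 were lower when any 1 library was left out. LIF, an IL6-family cytokine, was at 57.1, 27.5, 28.3 and 27.7 CPM in controls and at 5.2, 6.6, 5.28 and 1.92 CPM with Das (log2 -2.82 ± 0.33). The neutrophil chemokine CXCL8 fell from 14.8, 4.27, 3.67 and 3.1 CPM to 0.512, 0.438, 0.718 and 0.0619 CPM (log2 -3.73 ± 0.48). CXCL1, CCL20 and TNF fell with log2 fold changes of -3.76, -4.34 and -3.05. Das replicate 3 was below the other Das libraries at LIF, CXCL8, CXCL1 and TNF, and 8 other members of the list, among them IL6 and IL1B, had too few reads to be tested.

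Mitosis genes divided the Das libraries. Of 28 mitosis genes tested none was called in the 8 libraries at an adjusted p under 0.01 (edgeR, 0 higher and 0 lower), whereas all 28 were lower without Das replicate 3, with medians of -0.79 and -1.27 on the log2 scale. Summed over the list, controls were between 3790 and 4120 CPM and Das libraries at 2180, 1380, 1600 and 3970 CPM. At an unadjusted p under 0.05 edgeR gave 21 lower members, but 8294 of the 15732 genes tested passed that cutoff in either direction. DESeq2 called 9 of the 28 lower at an adjusted p under 0.01, and its share over all genes is not given here. With any other library left out the edgeR count at an adjusted p under 0.01 stayed at 0.

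PLK1, a kinase of mitotic entry and spindle assembly, was at 118, 138, 135 and 155 CPM in controls and at 54.5, 31.8, 33.2 and 100 CPM with Das (adjusted p = 0.0137, and 7.23e-06 without Das replicate 3). TOP2A, the topoisomerase that untangles chromosomes, was at 443, 435, 422 and 391 CPM in controls and at 258, 148, 173 and 484 CPM with Das. At TOP2A replicate 3 was above all controls. CCNB2, a B-type cyclin, was between 78.0 and 89.4 CPM in controls and at 41.1, 24.8, 30.1 and 80.1 CPM with Das, and CDC20, an activator of the anaphase-promoting complex, was between 176 and 255 CPM against 127, 46.7, 54.3 and 154 CPM.

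DNA replication genes showed the same order of libraries. Of 31 tested, 9 fell in the 8 libraries and all 31 without Das replicate 3 (median log2 fold changes of -0.71 and -0.96), and at most 1 was called when any other library was left out. The count was 22 with all 16 libraries of 72 h, 22 with no filter on low counts and 23 with DESeq2. The shares over all genes in those fits are not given here, so these counts have nothing to be read beside. MCM5, a subunit of the replicative helicase, was at 127, 119, 121 and 138 CPM in controls and at 56.1, 36.7, 36.9 and 89.0 CPM with Das (log2 -1.21 ± 0.27, adjusted p = 0.00748). MCM6, of the same complex, was between 198 and 238 CPM in controls and at 132, 105, 109 and 187 CPM with Das (adjusted p = 0.0135). RRM2, the regulated subunit of ribonucleotide reductase, was at 354, 412, 376 and 368 CPM in controls and at 121, 85.3, 106 and 397 CPM with Das. The unnumbered library and replicates 1 and 2 were below every control at all 3 genes, and replicate 3 was within the controls at RRM2. The call of MCM5 was lost when any library other than Das replicate 3 was left out (adjusted p up to 0.0307).

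CCND1, cyclin D1, which ERK induces, was below all controls in all 4 Das libraries and highest among them in replicate 3. It fell from 287, 287, 277 and 277 CPM to 57.1, 50.0, 52.7 and 98.1 CPM (log2 -2.13 ± 0.21). CCND3, CCNE1 and E2F2, a transcription factor of the G1/S transition, fell with log2 fold changes of -0.51, -0.83 and -1.37. In all, 5 of 18 G1/S genes fell and 0 rose, against 14 and 1 without Das replicate 3 and 2 or 3 lower without any other library. Of 10 CDK inhibitors and pocket proteins, RBL2 rose (log2 0.42) and CDKN2A fell (log2 -0.73). That is near the 10.5% higher and 11.4% lower over all genes tested. CDKN1B, the p27 inhibitor, was between 44.5 and 52.9 CPM in controls and between 52.9 and 65.5 CPM with Das (adjusted p = 0.0196).

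Promoters of 1 DNA replication gene and 1 mitosis gene are shown for the motifs known from such genes. The MCM6 stretch (GRCh38.p14, chr2:135876444-135876693, minus strand) has 2 E2F sites in capitals, at -152 to -145 and -90 to -83. The CCNB2 stretch (chr15:59104896-59105145, plus strand) has the cell cycle homology region TTTGAA at -29 to -24 and 4 CCAAT boxes, at -244, -120, -87 and -54, in capitals.
MCM6: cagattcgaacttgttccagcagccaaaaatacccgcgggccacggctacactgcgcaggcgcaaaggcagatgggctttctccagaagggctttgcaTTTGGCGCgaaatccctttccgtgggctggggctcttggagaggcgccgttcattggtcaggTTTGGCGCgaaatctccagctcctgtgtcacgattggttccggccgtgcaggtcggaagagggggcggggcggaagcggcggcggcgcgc
CCNB2: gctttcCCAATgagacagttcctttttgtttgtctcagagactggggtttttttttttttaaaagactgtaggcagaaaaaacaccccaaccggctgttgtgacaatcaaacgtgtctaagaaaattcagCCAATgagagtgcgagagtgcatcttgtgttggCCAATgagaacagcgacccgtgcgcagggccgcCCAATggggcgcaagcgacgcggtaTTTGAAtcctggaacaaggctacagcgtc
On both strands, TTTGGCGC or TTTCCCGC was present in 14 of 27 DNA replication promoters (51.9%) against 2.31% of all promoters. TTTGAA was present in 13 of 23 mitosis promoters (56.5%), in 1 of 27 DNA replication promoters (3.7%) and in 15.4% of all promoters, and CCAAT in 17 of 23 mitosis promoters (73.9%) and 35.7% of all. These shares describe the letters of the windows, without a test.

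ER chaperone and quality control genes divided the Das libraries in the same way. Of 17 tested, 4 were higher and 0 lower in the 8 libraries, and 14 were higher without Das replicate 3 (median log2 fold changes of 0.58 and 0.79). Leaving out any other library left between 0 and 3, and 8 were higher with DESeq2, whose share over all genes is not given here. HSPA5 (chr9:127997132-128003661, GRCh37), the main HSP70 chaperone of the ER, was at 409, 368, 385 and 354 CPM in controls and at 1160, 1460, 1320 and 373 CPM with Das (log2 1.51 ± 0.35, adjusted p = 0.00874, and 1.80 ± 0.09 without Das replicate 3). HERPUD1, a component of ER-associated degradation, was between 135 and 169 CPM in controls and at 567, 916, 850 and 222 CPM with Das (log2 2.06 ± 0.37). HSPA5 in replicate 3 was within the range of the controls, while HERPUD1 was above it.

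XBP1, a transcription factor of the unfolded protein response, went against this order, with 1410, 822, 899 and 1320 CPM in the Das libraries and between 587 and 685 CPM in controls. SEL1L, of the same degradation complex as HERPUD1, rose by 0.93 on the log2 scale. CALR, a lectin chaperone, was at 1180, 1580, 1580 and 1680 CPM in controls and at 1760, 2950, 2960 and 1320 CPM with Das and did not pass with 8 libraries (adjusted p = 0.0628). The call of HSPA5 was lost when any library other than Das replicate 3 was left out (adjusted p up to 0.0355), and those of HERPUD1, XBP1 and SEL1L in at least 5 of those 7 fits (up to 0.0171, 0.0190 and 0.0203).

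The HSPA5 promoter is shown because its list and the gene moved in the same libraries and the ER stress element was first described in such genes. Its 250 upstream bases (GRCh38.p14, chr9:125241344-125241593, minus strand) hold 1 such element in capitals, CCAAT, 9 bases and CCACG, at -66 to -48.
HSPA5: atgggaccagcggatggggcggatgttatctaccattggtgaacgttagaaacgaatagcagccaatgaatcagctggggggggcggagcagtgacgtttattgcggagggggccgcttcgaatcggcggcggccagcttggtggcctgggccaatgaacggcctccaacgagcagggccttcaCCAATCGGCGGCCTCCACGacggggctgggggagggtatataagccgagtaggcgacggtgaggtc
The element was found on either strand in 6 of 17 promoters of the list (35.3%: HSPA5, HSP90B1, CALR, CANX, XBP1 and CRELD2) and in 22 of 27305 promoters in all (0.0806%). It includes a CCAAT box, which by itself was in 16 of the 17 (94.1%) and in 35.7% of all.

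Targets of ATF4, the transcription factor of the amino acid and ER stress response, rose in part. Of 21 tested, 10 were higher and 1 lower, against 12 and 3 without Das replicate 3 and between 5 and 7 higher without any other library. DDIT3, the stress factor CHOP (39.6% of exon bases shared), was at 17.2, 9.67, 11.6 and 10.2 CPM in controls and at 87.0, 78.3, 70.4 and 17.2 CPM with Das (log2 2.38 ± 0.39). ALDH1L2, a mitochondrial folate enzyme, rose from between 117 and 173 CPM to 343, 519, 517 and 331 CPM (log2 1.46 ± 0.14), and the cystine transporter SLC7A11 from between 28.3 and 36.9 CPM to between 57.3 and 83.1 CPM. The last 2 genes were higher in all 4 Das libraries, while DDIT3 in replicate 3 was at the level of the highest control. CEBPB, a leucine zipper transcription factor, fell by 1.12. The adjusted p of DDIT3 rose as far as 0.0139 with a library other than Das replicate 3 left out.

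Of 23 lysosome and autophagy genes 4 rose and 2 fell, against 10 and 4 without Das replicate 3 and 1 or 2 higher without any other library. Over all genes tested 10.5% were higher and 11.4% lower, or 22.9% and 23.4% without Das replicate 3. The lower members were thus no more frequent than lower genes in general. WIPI1, a phosphoinositide-binding autophagy protein (28.1% of exon bases shared), rose from between 34.4 and 43.3 CPM to 129, 168, 161 and 57.5 CPM (log2 1.72 ± 0.29). MAP1LC3B, the LC3 protein of autophagosomes, rose from between 67.7 and 75 CPM to 154, 245, 220 and 78.1 CPM. At both genes Das replicate 3 was the lowest Das library. The protease CTSL rose by 1.04 and CTSB fell by 1.22. With a library other than Das replicate 3 left out the adjusted p of WIPI1 and MAP1LC3B reached up to 0.0156 and 0.0370.

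**Figure D5:**
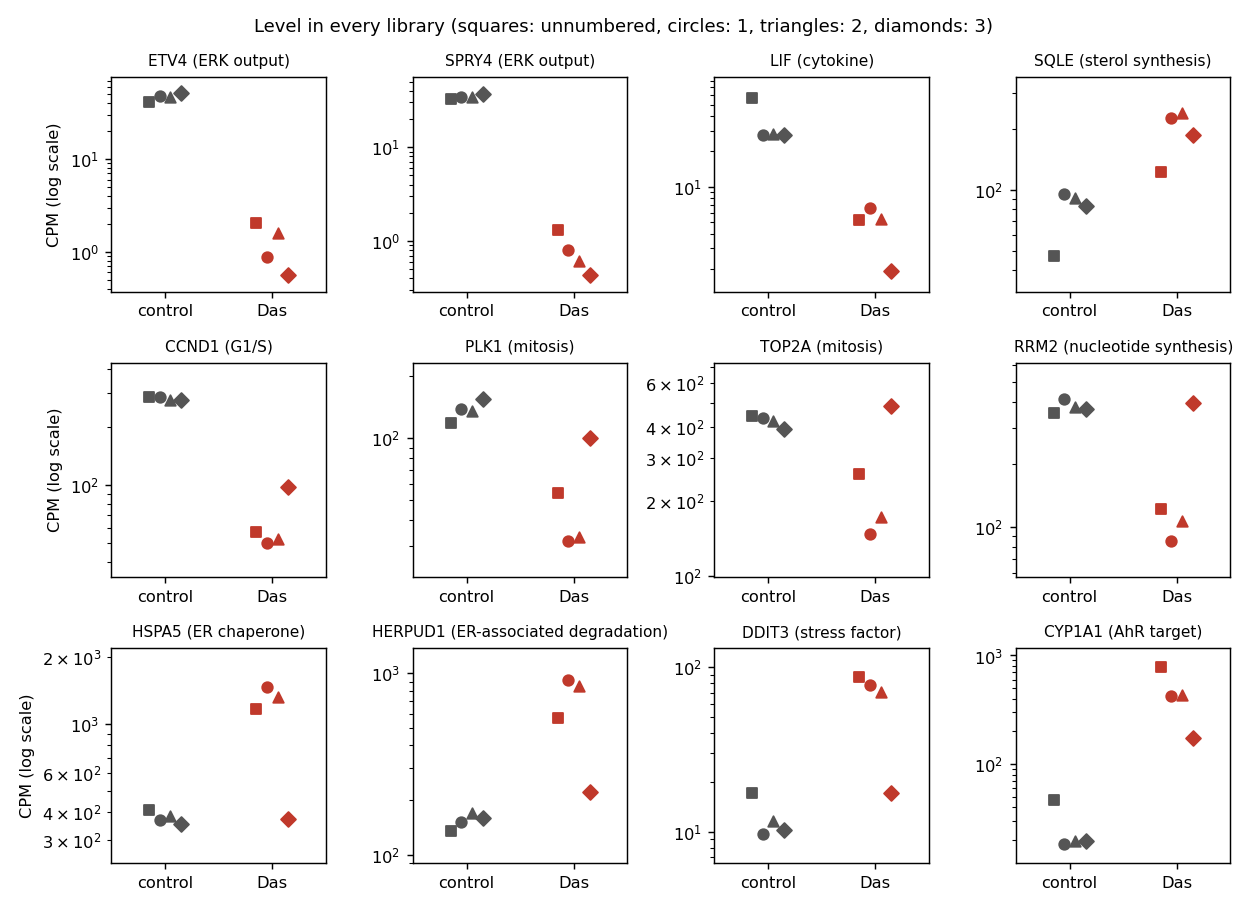
CPM on a log scale of 12 genes in each control (grey) and Das (red) library, with the marker shape giving the replicate. ETV4, SPRY4, LIF and CCND1 are low in all 4 Das libraries, and SQLE and CYP1A1 are high in all 4. For PLK1, TOP2A, RRM2, HSPA5, HERPUD1 and DDIT3, Das replicate 3 (diamond) lies nearer the controls than the other Das libraries do. It is below all controls for PLK1 and above them all for TOP2A and HERPUD1.

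Sterol synthesis genes were higher with Das in most of the members tested. Of 24 tested 17 were higher and 0 lower, with a median log2 fold change of 0.65, and the medians in the Das libraries were 0.59, 0.71, 0.7 and 0.65. Over members called without the library in question, the median positions of the Das libraries were 0.6, 1.23, 1.27 and 0.97. Without Das replicate 3 the counts were 17 and 1, and without any other library between 10 and 14 were higher. SQLE, squalene epoxidase, was at 46.9, 95.3, 90.9 and 83.1 CPM in controls and at 123, 227, 241 and 186 CPM with Das (log2 1.31 ± 0.10). IDI1, isopentenyl diphosphate isomerase, was at 92.8, 157, 143 and 140 CPM in controls and at 217, 352, 369 and 285 CPM with Das (log2 1.20 ± 0.10). The unnumbered libraries were the lowest of each group at both genes, and the rise was present within each kind of library.

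INSIG1, which retains the SREBP precursors in the ER, rose by 1.03 ± 0.10 on the log2 scale. Fatty acid synthesis is the other branch that SREBP factors control. Of 10 of its genes tested 1 was higher (ME1, malic enzyme, log2 0.45) and 2 lower (ACSS2, log2 -0.36, and SREBF1, the gene of the SREBP1 factor, log2 -1.07). FASN, fatty acid synthase, was between 1120 and 1960 CPM in controls and between 812 and 1190 CPM with Das (adjusted p = 0.0352). Over all genes tested 10.5% were higher and 11.4% lower. Whether the 2 branches differ was not tested.

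The aryl hydrocarbon receptor is a ligand-activated factor that drives xenobiotic metabolism. Of 9 of its genes tested 6 rose and 0 fell, against 9 of 10 without Das replicate 3 and between 3 and 5 without any other library. CYP1A1 (chr15:75011883-75017877), the cytochrome P450 most used as a readout of the receptor, was at 46.9, 18.4, 19.7 and 19.7 CPM in controls and at 777, 427, 431 and 174 CPM with Das (log2 4.13 ± 0.28). CYP1B1 was between 687 and 787 CPM in controls and between 1680 and 2100 CPM with Das (log2 1.31 ± 0.09). ALDH3A1 rose by 1.99, the receptor AHR (35.2% of exon bases shared) by 0.70 and its repressor AHRR (58.7% shared) by 0.97. Of 19 NRF2 targets, which respond to oxidants, 3 rose (NQO1, SLC7A11 and ME1) and 3 fell, OSGIN1 and AKR1B10 among them, against 10.5% higher and 11.4% lower over all genes tested.

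Glycolysis and hypoxia genes were lower in the numbered libraries more than in the unnumbered pair. Of 21 tested 10 fell and 0 rose, with medians of -0.74 on the log2 scale in the numbered libraries and -0.24 in the unnumbered pair, a difference that was not tested. LDHA, lactate dehydrogenase, was at 1090, 1360, 1230 and 1100 CPM in controls and at 445, 402, 441 and 548 CPM with Das (log2 -1.38 ± 0.12). CA9, a hypoxia-induced carbonic anhydrase (35.7% of exon bases shared), was at 295, 173, 184 and 208 CPM in controls and at 135, 31.8, 33.3 and 34.7 CPM with Das (log2 -2.16 ± 0.22). Leaving out any 1 library left between 8 and 11 lower members.

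Of 12 genes of MHC class I presentation 7 fell and 0 rose, and of 21 interferon-stimulated genes 9 fell and 1 rose. PSMB9, a subunit of the immunoproteasome, fell from between 26.3 and 29.4 CPM to 15.7, 10.0, 9.59 and 11.3 CPM (log2 -1.28 ± 0.13), and the peptide transporter TAP1 fell by 0.94. HLA-B, with 45.3% of exon bases shared, was at 396, 313, 309 and 340 CPM in controls and at 383, 166, 156 and 195 CPM with Das, so its unnumbered Das library overlapped the controls. IFIT3 fell by 1.28 and STAT2, a subunit of the interferon-activated complex, rose from between 48.9 and 49.8 CPM to 110, 169, 139 and 64.3 CPM. Leaving out a library other than Das replicate 3 left between 2 and 5 lower interferon-stimulated genes and between 4 and 8 lower MHC genes.

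Keratins mark the basal or luminal kind of an epithelial cell. Of 7 basal keratin genes tested 5 fell (KRT5, KRT14, KRT6A, KRT6B and KRT16), with a list median of -2.42, and leaving out any library other than Das replicate 3 left the count at 5. KRT5 was at 501, 509, 537 and 575 CPM in controls and at 97.0, 83.5, 85.1 and 158 CPM with Das (log2 -2.33 ± 0.20), and KRT14, its pairing partner, fell from between 11.7 and 22.9 CPM to between 1.22 and 1.83 CPM. Of 10 squamous differentiation genes 5 fell. S100A9, a calprotectin subunit, was at 2210, 1440, 1400 and 1340 CPM in controls and at 142, 37.7, 40.4 and 83.5 CPM with Das (log2 -4.51 ± 0.29), and S100A7 and IVL, an envelope protein of keratinocytes, fell as well (log2 -5.21 and -3.63).

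The simple-epithelial keratins KRT8, KRT18 and KRT19 fell with smaller log2 fold changes of -1.0, -0.72 and -1.0. Of 17 luminal keratin and secretory genes 6 fell and 2 rose, the latter being TFF1 (above) and S100P, a calcium-binding protein, from 68.7, 23.2, 24.3 and 19.9 CPM to 220, 135, 130 and 55.7 CPM (log2 2.11 ± 0.27). Das replicate 3 was below the unnumbered control at S100P and above the numbered ones. Of 14 epithelial and mesenchymal genes CDH3, P-cadherin, and CLDN4, a tight junction claudin, fell (log2 -1.18 and -0.71) and 0 rose. The counts of both lists stand against 10.5% higher and 11.4% lower over all genes tested.

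Among survival genes of the BCL2 family 6 of 15 fell and 0 rose, and they included members of both functions. The antiapoptotic MCL1 was at 560, 509, 523 and 497 CPM in controls and at 302, 278, 284 and 309 CPM with Das (log2 -0.83 ± 0.07), and BCL2L1, with 41.3% of exon bases shared, fell by 0.68. The proapoptotic BAX and BIK fell with log2 fold changes of -0.43 and -1.14. Leaving out a library other than Das replicate 3 left 3 or 4 of the 6.

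Of 10 STAT3 and SOCS genes 4 fell. STAT3 itself was at 359, 360, 357 and 354 CPM in controls and at 226, 209, 205 and 211 CPM with Das (log2 -0.75 ± 0.07), with all 4 Das libraries close together, and SOCS3, a STAT3-induced inhibitor, fell by 1.18. Leaving out a library other than Das replicate 3 left between 1 and 3. Of 15 Wnt ligands and targets 4 fell, among them the ligands WNT10A (log2 -2.65 ± 0.15) and WNT6 (log2 -1.89 ± 0.13), and WNT5A rose (log2 0.53). Of 16 ribosome biogenesis genes 4 fell, among them NCL, nucleolin (log2 -0.60). Of 17 FOXO targets 2 rose, among them PDK4, a brake on pyruvate oxidation, from between 3.1 and 5.7 CPM to 22.3, 23.2, 27.2 and 7.86 CPM, and 3 fell, against 10.5% higher and 11.4% lower over all genes tested. Leaving out a library other than Das replicate 3 left 2 or 3 lower Wnt members and between 1 and 3 lower ribosome biogenesis members. Without Das replicate 3 they numbered 10 and 7, where 23.4% of all genes tested were lower.

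The genes at which Das replicate 3 lay nearest to the controls or past them, among genes called without it, were MFSD2A, DUSP9, KLHDC7B, LDHD, FAM111B and ERCC6L. MFSD2A (chr1:40420784-40435640), a lysophosphatidylcholine transporter, was at 14.5, 18.1, 19.1 and 20.8 CPM in controls and at 54.4, 75.8, 64.1 and 4.33 CPM with Das, so that replicate 3 lay below all controls. FAM111B, a trypsin-like protease, was between 176 and 227 CPM in controls and at 60.2, 53.3, 61.7 and 256 CPM with Das. The genes at which replicate 3 went farthest were CXCL8, LIF, LRRC31, KLK8 (40.1% of exon bases shared), XDH and HGD. HGD, of tyrosine breakdown, was between 1.09 and 1.8 CPM in controls and at 6.27, 4.51, 5.85 and 9.84 CPM with Das. These 12 genes were chosen by the values of replicate 3 and are given as a description.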

How the data were processed

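RNA-seq had been done on MDA-MB-468 cells after PBS or 15 μM Das for 72 h, with 4 libraries a group out of 32. The authors sequenced single-end reads, and the processing notes of the submitters name bcl2fastq 2.19, STAR 2.5.2, Cufflinks 2.1.1, DESeq2 and GRCh37. The deposited table holds whole-number read counts of each Ensembl gene that had not been normalized. The program that counted the reads and its use of strand are not given in the sources used here, so reads of overlapping genes could not be told apart. The share of exon bases that a gene shares with another gene was computed from the GENCODE annotation on GRCh37. Reads per library ran from 27812240 to 39373515.

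These counts were tested here in edgeR 4.0.16, run under R 4.3.3 (TMM, filterByExpr with a minimum count of 10, quasi-likelihood test, Benjamini-Hochberg adjustment), with a term for unnumbered against numbered libraries. What that split stands for is not stated by the labels. Called genes had an adjusted p under 0.01 and a log2 fold change beyond 1.5, and list members an adjusted p under 0.01. Positions used log2 CPM with a prior count of 2. DESeq2 1.42.0 and other settings were alternatives. Scripts were tested on simulated data. Of the listed identifiers 46537 matched the annotation. Promoters came from RefSeq on GRCh38.p14. CCL5, ACACA, TXNIP, PECAM1 and the mitochondrial genes were not analysed here. Of the genes named by the rule below, 1 of the 12 rises and some list members are not reported here.

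Genes named were the 12 largest rises and 12 largest falls whose higher group had a mean of 1 CPM or more, with no overlap between groups, members of the gene lists, and the 6 genes each at which Das replicate 3 lay nearest to controls or farthest out (mean of at least 5 CPM). The comparison, the members and the gene lists were chosen with earlier results of these data known. The study describes biological replicates, and the labels add at most a replica number without saying more on their origin. The p-values thus measure the spread between these libraries.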

Additional observations from a re-analysis of the deposited data

Results flagged for a closer look

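In groups of 4 libraries, a library was taken to stand apart where its gap to the nearest other library, divided by the range of the group, exceeded the 95% critical value of Dixon, which chance gives in about 1 in 20 groups. Of 398 groups examined, 47 held such a library, and 23 of these were the unnumbered control and 10 the unnumbered Das library. At COL1A2, THY1 and CGA in controls, and at DCN and LUM with Das, a few reads in 1 library alone gave a ratio of 1.0. The chance rate does not apply to such groups. Whether the split between unnumbered and numbered libraries has a technical source was not tested.

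In the unnumbered control the following levels were above the other controls: LIF at 57.1 CPM, CXCL8 at 14.8, CYP1A1 at 46.9, S100A8 at 627, S100A9 at 2210, S100P at 68.7, LAMB3 at 15.6, PLAU at 29.4, PLAT at 1.72, DUSP5 at 31.1, FOSL1 at 7.96, BAX at 51.6, BIK at 14.8, NQO1 at 327, TAP1 at 87.2, IL7R at 2.04, SERPINB7 at 2.34 and COL1A2 at 0.0269 CPM. It was below the other controls for DUSP4 at 159 CPM, CTSL at 29.9 and TIMP3 at 13.7 CPM. Its median log2 level relative to the control mean was -0.26 for sterol synthesis and 0.11 for G1/S genes.

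The unnumbered Das library stood above the other Das libraries for IGFBP3 at 274 CPM, CA9 at 135, S100A7 at 37.6, OSGIN1 at 10.6, TFF1 at 3.49, TNF at 0.537, CCL20 at 0.317 and DCN at 0.0244 CPM, and below them for SERPINB7 at 0.0 CPM. Its median log2 level for glycolysis and hypoxia genes was -0.08.

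Das replicate 3 stood above the other Das libraries for EGR1 at 7.42 CPM, CCND1 at 98.1, CCNE1 at 21.1, CDKN2A at 78.0, RRM2 at 397, FAM111B at 256 and ERCC6L at 27.1 CPM. All 7 were genes that were lower in the other Das libraries than in controls. FAM111B and ERCC6L had been named for the position of that library.

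The rest were spread over other libraries, with CGA at 0.0792 and KRT6B at 14 CPM in control replicate 2, AMOTL2 at 277, KRT19 at 3270 and THY1 at 0.0279 CPM in control replicate 3, MMP7 at 0.156 CPM in Das replicate 1 and LUM at 0.0718 CPM in Das replicate 2.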

How the results depend on the processing

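Against 316 higher and 391 lower genes with all 8 libraries, the numbered libraries alone gave 146 higher and 309 lower. All 16 libraries of 72 h fitted together gave 485 and 434, and no batch term 284 and 353. RLE size factors in edgeR in place of TMM gave 316 and 385. No filter on low counts gave 441 and 480, and DESeq2 364 and 410. The adjusted p alone gave 1646 and 1799, and a fold change above 1.5 in place of a log2 fold change above 1.5 gave 1283 and 1328. Leaving out 1 library at a time gave between 142 and 595 higher and between 284 and 593 lower genes. The higher count was 142, 169, 168 and 163 without the unnumbered control and control replicates 1, 2 and 3, and 148, 197 and 595 without the unnumbered Das library and Das replicates 2 and 3, and the lower count was 593 without Das replicate 3. The cause of these changes was not tested. Deviations of same-numbered libraries from their group means correlated at 0.63 for the unnumbered pair and at 0.13, 0.21 and 0.05 for numbers 1, 2 and 3. These deviations still hold the difference between unnumbered and numbered libraries, so they cannot decide whether the numbers pair the samples. A replicate block gave 270 higher and 381 lower genes. The median positions of the Das libraries moved by at most 0.1 with other cutoffs or another prior count, with that of replicate 3 between 0.43 and 0.51.

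Of 156 named genes tested none changed sign under these alternatives. Of 135 that were called, 95 were also called with each library left out in turn, and 40 lost the call at least once, with adjusted p up to 0.0378. Beside the genes for which the values stand with the result, these were ACSS2, AHR, AHRR, AKR1B10, ATF4, BAX, CCND3, CDKN2A, CLDN4, COL1A1, CREG2, E2F2, EGF, HLA-B, ITGB4, KRT8, KRT19, ME1, MYC, NCL, NQO1, PDK4, RBL2, SOCS3, STAT2, TIMP3, WNT5A and ZFP36. Genes at few reads are limited by counting error.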
